A study of Mus musculus with 3 samples.

Results

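The 44 genes described here, of 28692 in the matrix, are 22 genes active in S phase and 22 active in G2 and mitosis. They were read as a measure of which cells in pancreatic tumours were dividing. The lists were given by name. A cell was called cycling when at least 4 of the 44 genes had at least 1 unique molecular identifier (UMI, a tag that counts an RNA molecule once) after each cell had been thinned at random to 3000 UMIs. Cells came from 3 tumours of KPf/fC mice, and all 3 formed 1 group. The sort had kept cells without surface CD45, CD31 and PDGFRa, and the libraries used 10x 3' v2 chemistry. In KPC models Cre recombinase acts in pancreatic epithelium, and f/f usually denotes floxed Trp53, but the labels name the strain alone. They give no alleles, ages or link between tumours and animals, so each p-value below measures spread between these tumours.

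A dividing cell first copies its DNA in S phase and then separates the copies in mitosis. S phase genes encode the replication machinery, such as the Mcm helicase and the sliding clamp Pcna, and enzymes that make nucleotides, such as Rrm1, Rrm2 and Tyms. G2/M genes encode the kinase Cdk1 with its B-type cyclins, the mitotic kinases Aurka, Aurkb, Plk1 and Bub1, spindle motors such as Kif11 and Kif23, and centromere proteins such as Cenpa, Cenpe and Cenpf. E2F factors are known to switch on S phase genes, while many G2/M genes are controlled through a cell cycle genes homology region (CHR) and CCAAT boxes near their start sites.

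The promoters of the members, 300 bases around the start site and mostly before it, separated the lists. RefSeq sequences (GRCm38.p6) were found for 37 of the 44 members. Fen1 and Uhrf1 had 2 entries each, so the 19 S promoters below come from 17 genes. Both Uhrf1 entries held an E2F site, and 1 of the Fen1 entries held a CHR. Tpx2, Tipin, Aurkb, Exo1, Mcm4, Rfc2 and Gins2 had no entry. Both strands were searched for the CHR as TTTGAA or TTCGAA, for CCAAT, and for E2F sites as TTTCGCGC, TTTGGCGC or TTCCCGCC. The CHR was present in 15 of 20 G2/M promoters (75%), in 3 of 19 S promoters (15.8%) and in 19.2% of all 32851 promoters. At least 2 CCAAT boxes were present in 65% of G2/M, 47.4% of S and 11.7% of all promoters. An E2F site was present in 8 of 19 S promoters (42.1%), 1 of 20 G2/M promoters (5%) and 2.96% of all promoters. A match is a description of letters and not evidence of binding. The 5 promoters below are of 4 G2/M genes whose levels are given later and of Mcm5, an S gene shown for its E2F matches. Capitals mark CHR, CCAAT and E2F matches on either strand, and in Mcm5 a pair of E2F matches overlap.
Cdk1 promoter, chr10:69352863-69353162, minus strand, 2 CHR, 3 CCAAT and 1 E2F match: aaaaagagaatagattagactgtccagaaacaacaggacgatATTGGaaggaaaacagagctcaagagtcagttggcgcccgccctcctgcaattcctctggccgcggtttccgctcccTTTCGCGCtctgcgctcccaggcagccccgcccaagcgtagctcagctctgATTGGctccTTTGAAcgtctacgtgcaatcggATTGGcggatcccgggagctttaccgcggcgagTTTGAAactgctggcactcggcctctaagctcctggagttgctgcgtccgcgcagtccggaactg
Ccnb2 promoter, chr9:70421505-70421804, minus strand, 2 CHR and 3 CCAAT matches: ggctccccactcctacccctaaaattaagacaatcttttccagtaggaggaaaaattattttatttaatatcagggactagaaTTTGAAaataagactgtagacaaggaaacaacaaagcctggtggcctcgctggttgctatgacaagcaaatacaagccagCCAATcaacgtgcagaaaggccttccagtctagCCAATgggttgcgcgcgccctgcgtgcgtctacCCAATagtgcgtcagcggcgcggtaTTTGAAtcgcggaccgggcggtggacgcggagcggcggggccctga
Hmmr promoter, chr11:40733388-40733687, minus strand, 1 CHR and 5 CCAAT matches: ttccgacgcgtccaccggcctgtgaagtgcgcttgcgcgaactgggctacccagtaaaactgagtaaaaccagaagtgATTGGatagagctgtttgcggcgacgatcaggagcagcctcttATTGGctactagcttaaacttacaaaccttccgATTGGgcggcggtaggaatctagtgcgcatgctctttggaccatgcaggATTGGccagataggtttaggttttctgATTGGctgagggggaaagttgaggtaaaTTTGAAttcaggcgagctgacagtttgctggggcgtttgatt
Kif23 promoter, chr9:61946750-61947049, minus strand, 1 CHR and 1 CCAAT match: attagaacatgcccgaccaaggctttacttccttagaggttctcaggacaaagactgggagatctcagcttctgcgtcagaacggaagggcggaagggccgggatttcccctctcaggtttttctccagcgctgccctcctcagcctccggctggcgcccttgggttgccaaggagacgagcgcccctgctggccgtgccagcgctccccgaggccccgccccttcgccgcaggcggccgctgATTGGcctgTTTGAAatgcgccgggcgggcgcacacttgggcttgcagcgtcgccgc
Mcm5 promoter, chr8:75109259-75109558, plus strand, 3 CCAAT and 2 E2F matches: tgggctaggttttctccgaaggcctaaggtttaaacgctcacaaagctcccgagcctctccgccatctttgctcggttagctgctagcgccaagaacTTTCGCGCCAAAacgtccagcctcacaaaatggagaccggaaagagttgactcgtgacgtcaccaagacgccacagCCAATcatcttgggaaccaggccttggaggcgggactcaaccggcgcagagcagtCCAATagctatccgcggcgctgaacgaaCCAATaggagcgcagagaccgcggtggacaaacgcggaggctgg

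Of 19576 barcodes, 18990 cells were kept, with 5728, 5978 and 7284 in tumours 1, 2 and 3. Median UMIs per barcode were 8460.5, 9052 and 6025. All 816 kept cells under 3000 UMIs came from tumour 3 and were left out of every share taken after thinning. Pairs of tumours shared 50 to 65 barcode sequences. Classes were set by 2 genes each, and cells meeting several rules were left out, with 1 exception. Cells of both the mesothelial and fibroblast rules, 364 of 375 mesothelial-rule cells, were counted as mesothelial. The classes then held 6364 epithelial (Epcam, Cdh1), 5581 fibroblast (Dcn, Col3a1), 561 mural (Rgs5, Higd1b) and 359 mesothelial (Upk3b, Lrrn4) cells. They also held 257 endothelial (Pecam1, Cdh5) and 1363 mesenchymal tumour-like cells (Cdkn2a and Hmga2 with no Epcam and at most 1 Dcn). A rule needs UMIs of both genes, so deeper cells met it more often. Against the sort in the labels, 257 cells met the endothelial rule, which itself asks for Pecam1 (CD31). Pdgfra was detected after thinning in 14.6% to 28.9% of fibroblast cells, while Ptprc (CD45) was detected in at most 1.6% of any class. The fibroblast and endothelial classes are thus what the sort left. Their values need not hold for all fibroblasts and endothelial cells of the tumours. The mesenchymal tumour-like rule itself limits Dcn and Epcam. Summed epithelial markers in that class were 6851, 1208 and 4569 CPM (counts scaled to a common total per sum) in tumours 1, 2 and 3, lowest in tumour 2. The same markers summed to 10407 to 11795 CPM in the epithelial class and 493 to 1082 CPM in the fibroblast class. In tumours 1 and 3 the class thus kept much epithelial marker RNA, and its name fits tumour 2 best.

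Dividing cells were found in every class, and tumour 3 had the fewest in each of them. Among epithelial cells, 10.2%, 13.4% and 5.66% of cells were cycling in tumours 1, 2 and 3 (9.74% ± 3.87, SD, n = 3). Fibroblast cells gave 9.42%, 15.4% and 2.66% (9.15% ± 6.36, SD, n = 3). The epithelial range lay within the fibroblast range, which depended on how classes were set. With class rules applied to thinned counts, fibroblast cells gave 9.27%, 7.26% and 2.75% and epithelial cells 9.22%, 11.4% and 4.84%. Mural cells, which wrap small vessels, gave 23.4%, 16.7% and 5.41% (15.2% ± 9.09, SD, n = 3). In tumour 3, 105 of 253 mural cells were under 3000 UMIs and had no part in this share. Thinned to 2000 UMIs, with all 253 mural cells, tumour 3 gave 2.37% in mural and 3.20% in epithelial cells. Mesothelial cells, the lining of the body cavity, gave 10.2%, 20.8% and 5% (12% ± 8.07, SD, n = 3). Mesenchymal tumour-like cells gave 16.8%, 32.2% and 5.51% (18.1% ± 13.4, SD, n = 3). The share was highest in tumour 2 in 4 classes and in tumour 1 in the mural and endothelial classes. Endothelial cells gave 32 of 186 cells (17.2%) in tumour 1 and 0 of 28 in tumour 3, which allows a share of up to 10.7%. Another 29 endothelial cells of tumour 3 were under 3000 UMIs. Tumour 2 held only 14 endothelial cells, fewer than the minimum of 20.

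**Figure D1:**
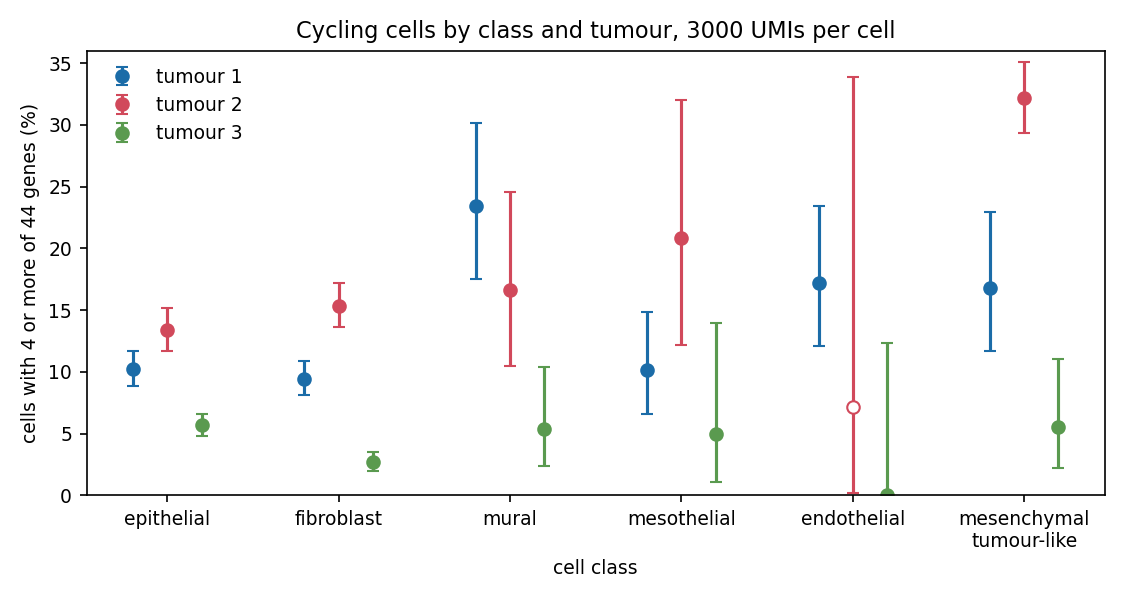
Percentage of cells called cycling (y axis) by cell class (x axis) in each tumour (colours); bars are exact 95% binomial intervals, which cover counting error only, and the open point marks 14 cells. Tumour 3 is lowest in every class with at least 20 cells, and tumour 2 of the mesenchymal tumour-like class is highest, at 32.2%.

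None of the differences between classes exceeded the spread between tumours. The mean within-tumour difference between epithelial and fibroblast cells was 0.594 percentage points (SD 2.51, exact two-sided permutation p = 0.75, n = 3). Epithelial minus mural was -5.42 points (SD 6.96, exact p = 0.5, n = 3), and epithelial minus mesenchymal tumour-like was -8.40 points (SD 9.61, exact p = 0.5, n = 3). Epithelial minus mesothelial was -2.26 points (SD 4.53, exact p = 1, n = 3) and epithelial minus endothelial -0.667 points (exact p = 1, n = 2). The smallest p that 3 tumours allow is 0.25, and 2 tumours 0.5, so this design could not reach 0.05. All 5 adjusted p were 1. These comparisons share the epithelial values. In tumour 2 the exact binomial intervals of the epithelial class (11.7% to 15.2%) and the mesenchymal tumour-like class (29.3% to 35.1%) did not overlap, and in tumour 3 they did (4.84% to 6.56% and 2.24% to 11%).

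Thinning changed the shares and their order. Without it, 45.8%, 48.5% and 34.4% of epithelial cells and 38.3%, 29.2% and 7.51% of mural cells passed the same rule, with cells under 3000 UMIs included. Median depth of these cells was 10613, 8958.5 and 7729 UMIs in the epithelial and 5135, 5151.5 and 3251 in the mural class. Next to the threshold, 138, 133 and 275 epithelial cells held exactly 3 members and 40, 57 and 81 held exactly 4. Cells with at least 8 members were 13.8% of mural cells and 4.61% of epithelial cells in tumour 1. Mesenchymal tumour-like cells with at least 8 members were 18.2% of their class in tumour 2.

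**Figure D2:**
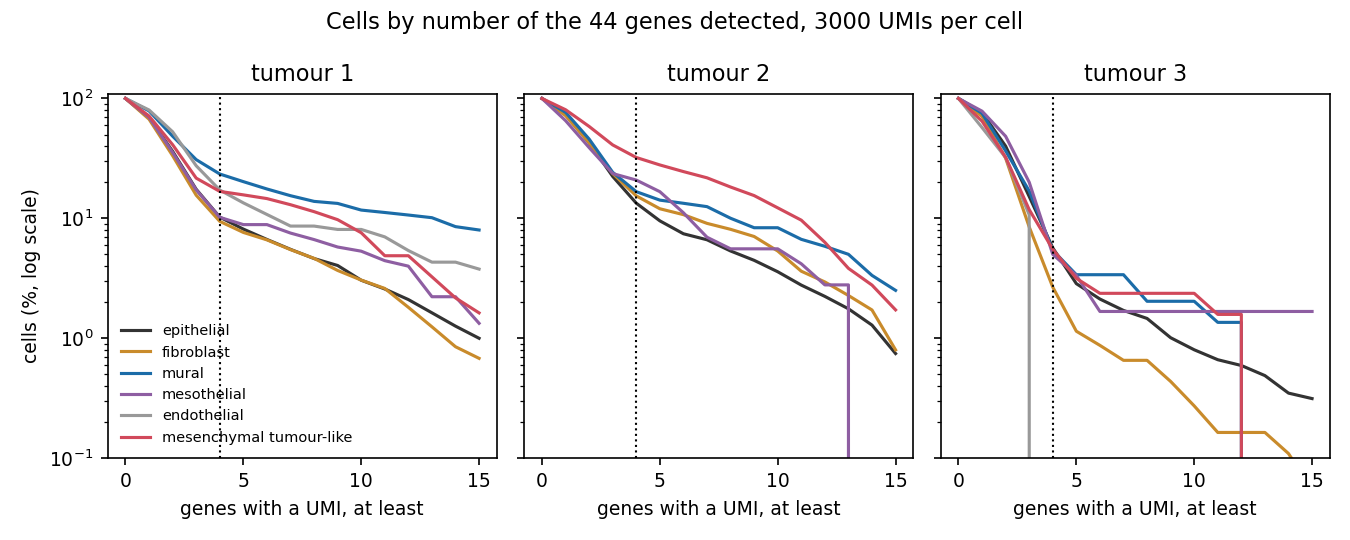
Percentage of cells (y axis, log scale) with at least the number of the 44 genes on the x axis, by class (colours) and tumour (panels), at 3000 UMIs per cell; the dotted line is the threshold of 4. In tumour 1 the mural curve lies above the epithelial curve beyond the threshold, with 13.8% against 4.61% of cells at 8 genes.

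Among cycling cells, S and G2/M members were counted against each other, and a cell was called G2/M-leaning when it held more G2/M than S members. That share was 61.0%, 44.9% and 50.9% in epithelial cells of tumours 1, 2 and 3, and 57.5%, 50.2% and 32.7% in fibroblast cells. The ranges overlapped, and the mean difference was 5.52 points (SD 11.9, exact permutation p = 0.75, n = 3). Mesenchymal tumour-like cells gave 58.1% and 58.8% in tumours 1 and 2, and tumour 3 had 7 cycling cells of that class. In tumour 3, 81 of 163 cycling epithelial and 28 of 49 cycling fibroblast cells held exactly 4 members, so 1 gene could turn the lean. Hmgb2 counts as a G2/M member here and was also found in epithelial cells below the threshold. Across single cells, detection of G2/M members went together more than that of S members. The median correlation between pairs of G2/M members was 0.188 over 6273 epithelial cells, 0.186 over 5248 fibroblast cells and 0.178 over 1360 mesenchymal tumour-like cells. Pairs of S members had medians of 0.032, 0.045 and 0.075. All pairs share the cells and their thinned depth. The leading pair was Birc5 with Cenpf in epithelial cells (0.392), Ccnb2 with Cenpa in fibroblast cells (0.464) and Top2a with Ube2c in mesenchymal tumour-like cells (0.427).

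Levels of each member were next taken from counts summed per class and tumour, as CPM. Fewer dividing cells and less RNA per dividing cell cannot be told apart in such sums. Mki67, the common marker of proliferation, was at 17, 13.3 and 5.1 CPM in epithelial, 11.4, 11.8 and 1.7 in fibroblast, and 38.8, 24.1 and 10.6 in mural cells of tumours 1, 2 and 3. Mural cells were above epithelial cells in each tumour. In mesothelial cells Mki67 was at 13.5, 17.9 and 1.8 CPM, in mesenchymal tumour-like cells at 11.7, 19.7 and 5.8, and in endothelial cells at 22.3 (tumour 1) and 4.9 (tumour 3). Tumour 3 was lowest in each class for Mki67. It was also lowest for 21 of 22 G2/M members in epithelial, fibroblast, mesothelial and mesenchymal tumour-like cells and for 22 of 22 in mural cells, and for 18 to 20 of 22 S members.

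Top2a, the topoisomerase that untangles copied DNA, was at 25.5, 35.7 and 5.2 CPM in epithelial, 20.5, 62.8 and 3.5 in fibroblast and 32.8, 99.2 and 7.3 in mesenchymal tumour-like cells. It reached 90.7, 51.0 and 5.3 in mural and 31.2, 52.5 and 7.3 in mesothelial cells, and endothelial cells had 50.2 in tumour 1 and 0 in tumour 3. Cdk1, the kinase that starts mitosis, was at 24.1, 39.5 and 16.5 CPM in epithelial, 33.5, 74.5 and 11.4 in fibroblast, 121.9, 73.7 and 22.2 in mural and 35.5, 103.6 and 20.3 in mesenchymal tumour-like cells. For both genes tumour 3 was lowest in every class. In mesothelial cells Cdk1 was at 46.3, 82.8 and 18.1 CPM, and in endothelial cells at 63.3 and 4.9 in tumours 1 and 3.

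Pcna and Hmgb2 were not lowest in tumour 3 in epithelial, fibroblast and mesothelial cells. Pcna was at 39.1, 42.1 and 48.0 CPM in epithelial, 26.3, 42.6 and 36.5 in fibroblast, 54.8, 29.7 and 45.4 in mural, 36.7, 16.6 and 47.2 in mesothelial and 56.0, 52.2 and 45.0 in mesenchymal tumour-like cells. Endothelial cells had 43.7 and 34.0 in tumours 1 and 3. Hmgb2, a chromatin protein, gave the most UMIs of the members, at 210, 216 and 252 CPM in epithelial, 146, 228 and 174 in fibroblast and 329, 324 and 209 in mural cells. Tumour 3 was highest in epithelial cells for both genes. In mesothelial cells Hmgb2 was at 180, 168 and 249 CPM, in mesenchymal tumour-like cells at 271, 312 and 170, and in endothelial cells at 229 and 136. Of epithelial cells below the threshold, 19.7%, 21.2% and 44.1% held Hmgb2 UMIs and 7.76%, 9.27% and 11.1% held Pcna UMIs, against 0.642%, 0.156% and 0.441% for Mki67. Mcm2, a helicase subunit, was at 13.3, 16.3 and 5.7 CPM in epithelial, 8.2, 15.5 and 1.9 in fibroblast, 14.2, 18.4 and 4.2 in mural, 12.2, 13.8 and 5.4 in mesothelial, 18.1, 19.5 and 8.0 in mesenchymal tumour-like and 26.0 and 4.9 in endothelial cells.

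**Figure D3:**
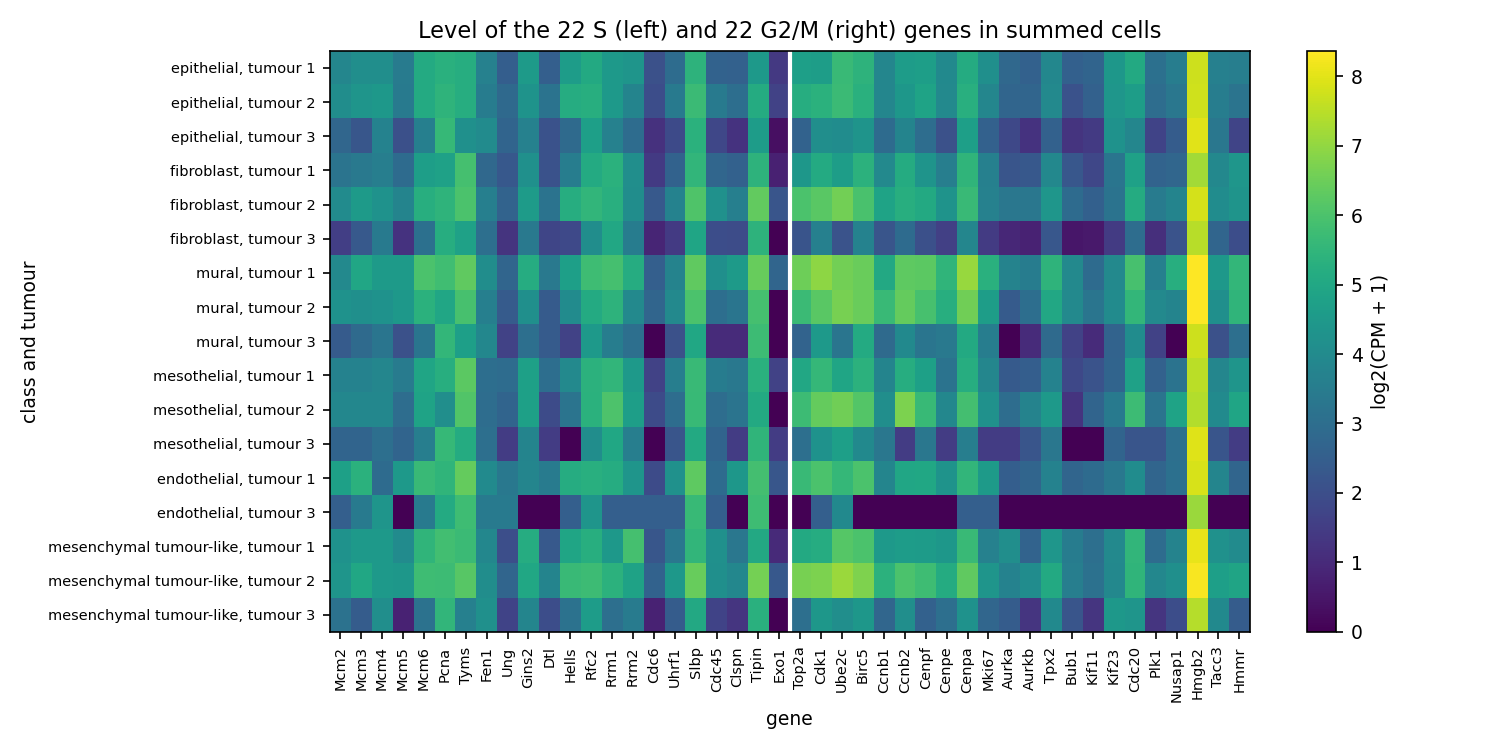
Level of each of the 44 genes (x axis, S genes left of the white line) as log2(CPM + 1) (colour) in counts summed per class and tumour (y axis). Hmgb2 is the brightest column, and the rows of tumour 3 are darker than those of tumours 1 and 2 for most genes.

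Epithelial and fibroblast cells differed in few members. Of 13686 genes tested with edgeR, 40.7% passed an adjusted p of 0.05, 17.8% higher and 23% lower in epithelial cells. Of the 22 S members 0 were higher and 3 lower, and of the 22 G2/M members 1 was higher and 1 lower. Those 5 are a smaller share of the 44 than the share of all genes; 3 passed without tumour 1. Without tumour 2, and also in sums of thinned cells, 9 passed and the balance turned to 6 higher and 3 lower. The median log2 fold change was 0.18 for S and 0.09 for G2/M members against -0.03 for all genes.

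Tipin, which stabilizes replication forks, was at 21.3, 34.6 and 23.5 CPM in epithelial and 41.7, 81.1 and 41.9 in fibroblast cells. The ranges did not overlap (log2 fold change -1.09, SE 0.16, edgeR with Benjamini-Hochberg adjusted p = 0.00267, lower in 3 of 3 tumours). It was at 84.1, 58.1 and 51.8 CPM in mural, 38.8, 33.1 and 43.5 in mesothelial, 32.2, 96.8 and 38.4 in mesenchymal tumour-like and 56.7 and 53.4 in endothelial cells. Rrm1, the large subunit of ribonucleotide reductase, was at 22.2, 22.2 and 11.8 CPM in epithelial and 39.6, 37.5 and 31.4 in fibroblast cells, again without overlap (-1.08, SE 0.19, edgeR adjusted p = 0.00560). Its levels were 58.6, 41.1 and 10.6 in mural, 44.7, 64.9 and 30.8 in mesothelial, 21.1, 40.3 and 7.3 in mesenchymal tumour-like and 35.4 and 4.9 in endothelial cells. Tyms, which makes thymidylate, was at 36.3, 36.1 and 17.3 CPM in epithelial and 58.3, 63.2 and 26.5 in fibroblast cells (-0.78, SE 0.15, edgeR adjusted p = 0.00734). For Tyms the class ranges overlapped, but epithelial cells were lower within each tumour. Tyms was at 78.4, 59.5 and 25.4 CPM in mural, 75.0, 67.6 and 34.5 in mesothelial, 50.9, 72.9 and 11.6 in mesenchymal tumour-like and 83.7 and 53.4 in endothelial cells.

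Hmmr, a spindle protein that also binds hyaluronan, was at 10.9, 8.4 and 2.3 CPM in epithelial and 19.9, 19.3 and 2.9 in fibroblast cells (-0.92, SE 0.23, edgeR adjusted p = 0.0216). It was lower in epithelial cells of each tumour, with the smallest gap in tumour 3, and the call was lost without tumour 1 or tumour 2. Hmmr reached 45.4, 43.9 and 7.4 CPM in mural, 19.8, 29.0 and 1.8 in mesothelial, 15.4, 28.5 and 4.4 in mesenchymal tumour-like and 5.6 and 0 in endothelial cells. Kif23, a motor of the central spindle that is needed to divide the cell body, went the other way, at 20.6, 19.8 and 18.1 CPM in epithelial and 8.6, 8.1 and 1.7 in fibroblast cells (1.77, SE 0.42, edgeR adjusted p = 0.0177). Its ranges did not overlap. Kif23 was at 14.2, 15.6 and 5.3 CPM in mural, 5.5, 9.7 and 5.4 in mesothelial, 14.4, 13.9 and 21 in mesenchymal tumour-like and 9.3 and 0 in endothelial cells.

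The epithelial level of Kif23 stayed within 18.1 to 20.6 CPM over the tumours. Kif23 was also found outside cycling cells. Of epithelial cells below the threshold, 3.68%, 3.19% and 3.53% held a Kif23 UMI, against 0.374%, 0.362% and 0.223% of such fibroblast cells. Among cycling epithelial cells the share was 16.4%, 11.6% and 22.1%. Kif23 lies at chr9:61915905-61946774 on the minus strand (GRCm38), and no gene of the matrix overlaps it there.

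Most G2/M members that differed were higher in mural than in epithelial cells. Of 12452 genes tested, 41.8% passed, 23.9% higher and 17.9% lower in epithelial cells. Of the 22 G2/M members 1 was higher and 13 were lower in epithelial cells, with a median log2 fold change of -0.92 against 0.15 for all genes. Of the 22 S members 0 were higher and 3 lower, with a median of -0.26. Hmmr differed most (log2 fold change -1.98, SE 0.29, edgeR adjusted p = 0.000119). Bub1, a checkpoint kinase, was at 4.9, 3.3 and 1.4 CPM in epithelial and 14.2, 14.2 and 2.1 in mural cells (-1.45, SE 0.46, edgeR adjusted p = 0.0232). Cenpe, a motor at the kinetochore, was at 14.7, 14.2 and 3.2 against 43.5, 36.8 and 9.5 CPM (-1.37, SE 0.26, edgeR adjusted p = 0.000999). Ccnb2, a B-type cyclin, was at 23.6, 20.6 and 12.8 against 76.6, 83.6 and 14.8 CPM (-1.34, SE 0.29, edgeR adjusted p = 0.00245). All 3 were higher in mural cells of each tumour. The mural sum of tumour 3 held only 946140 UMIs, so the Bub1 value there rests on very few UMIs. Tipin (-1.21, SE 0.23, adjusted p = 0.00123) and Tyms (-0.71, SE 0.20, adjusted p = 0.0128) were lower in epithelial cells, and Kif23 was higher (0.91, SE 0.32, adjusted p = 0.0400), all by edgeR. Over both lists 17 members passed; the number passing was 8 without tumour 1, 11 without tumour 2 and 1 without the replicate block. The Kif23 call was lost without any 1 tumour, without the block, with DESeq2, with library totals, in thinned sums and in 1 fit for all classes. The mural sums also held 3756 to 4873 CPM of fibroblast markers, against 131 to 186 in the epithelial sums. Cdkn2a, Hmga2, Vim and Fn1 together summed to 3798 to 4692 CPM in mural and 1551 to 2796 CPM in epithelial sums. The same genes gave 3351 to 6338 CPM in fibroblast and 4129 to 7581 CPM in mesenchymal tumour-like sums, so they do not single out tumour cells. The part of fibroblast or tumour cells in these results was not tested.

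Mesothelial cells differed in 8 members, beside 40.3% of the 12650 genes tested (21.4% higher and 18.9% lower in epithelial cells). Of S members 1 was higher and 3 lower in epithelial cells, and of G2/M members 1 was higher and 3 lower. Rrm1 (-1.35, SE 0.22, adjusted p = 0.000120), Tyms (-1.05, SE 0.20, adjusted p = 0.000479) and Cdk1 (-0.90, SE 0.22, adjusted p = 0.00437) were lower by edgeR. Hells, a chromatin remodeller of S phase, was higher, at 23.9, 35.1 and 6.5 CPM in epithelial and 14.3, 8.3 and 0 in mesothelial cells (1.21, SE 0.36, edgeR adjusted p = 0.0139). Kif23 was higher too (1.54, SE 0.33, edgeR adjusted p = 0.00138), a call lost without tumour 1. Both folds rest on few mesothelial UMIs and are uncertain. The mesothelial sums of tumours 2 and 3 held 724401 and 551237 UMIs, and that of tumour 3 held 0 of Hells. Without tumour 2, 5 members passed. The mesothelial sums also held 10516 to 14952 CPM of fibroblast markers. Nearly all mesothelial-rule cells also met the fibroblast rule and so held Dcn and Col3a1 UMIs. The part of these markers in the results was not tested.

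Endothelial cells entered with tumours 1 and 3 only. Of 12867 genes 25.1% passed, 13.9% higher and 11.2% lower, and of the members 2 S genes were lower and 2 G2/M genes higher in epithelial cells. Tyms (-1.21, SE 0.35, edgeR adjusted p = 0.00370) and Tipin (-1.19, SE 0.38, edgeR adjusted p = 0.00921) were lower. All 4 calls were lost with DESeq2 and without the replicate block, and 1, Tyms, was made in sums of thinned cells. Cdc20, which activates the anaphase complex, was at 32.6 and 13.2 CPM in epithelial cells and 15.8 and 0 in endothelial cells of tumours 1 and 3. Kif23 and Cdc20 passed in edgeR, with adjusted p = 0.0266 and 0.0388. Both had 0 UMIs in the endothelial sum of tumour 3, which held 17 of 22 G2/M members at 0 and only 206127 UMIs, so no fold is given. The same sum held 8747 CPM of haemoglobin genes, against at most 43 CPM in the epithelial sums.

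Mesenchymal tumour-like cells gave higher values than epithelial cells for most members, but none passed. Of 12834 genes 3.96% passed in edgeR, 2.81% higher and 1.15% lower in epithelial cells, and 0 of 44 members did. The median log2 fold change, epithelial minus mesenchymal tumour-like, was -0.40 for S and -0.75 for G2/M members against 0.04 for all genes, and 1 of 22 was positive in each list. An unadjusted p under 0.05 was reached by 5 S and 10 G2/M members, and DESeq2 called 7 members. Without tumour 2, edgeR called 5. Against fibroblast cells the mesenchymal tumour-like class gave 0 calls among the 44 in edgeR (5.44% of 12888 genes passed, 0.528% higher and 4.91% lower), 6 S and 12 G2/M members at an unadjusted p under 0.05, and 2 by DESeq2. Without tumour 2, edgeR called 9.

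**Figure D4:**
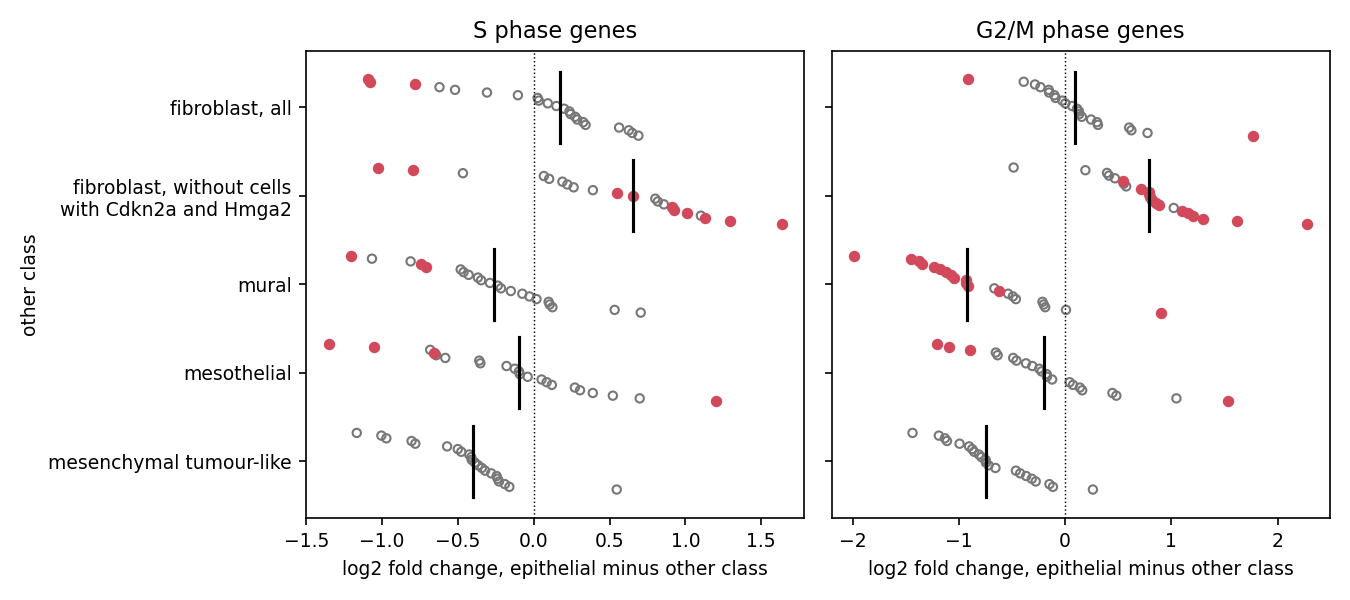
Log2 fold change of each S gene (left) and G2/M gene (right), epithelial minus the class on the y axis; filled points passed an edgeR adjusted p of 0.05 and vertical lines are medians. Most G2/M points lie left of 0 for mural cells (median -0.92) and right of 0 for fibroblasts without cells that hold Cdkn2a and Hmga2 (median 0.79).

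The fibroblast rule took in cells with tumour-associated genes. Cells holding both Cdkn2a and Hmga2 were 5.30%, 43.2% and 2.71% of the fibroblast class in tumours 1, 2 and 3. Of these cells 24.5%, 30.1% and 2% were cycling, against 8.58%, 4.203% and 2.68% of the other fibroblast cells. The gap was seen in tumours 1 and 2. Both-gene cells were also deeper, with median UMIs of 13407.5, 12968 and 8749 against 7046, 6936.5 and 5411.5. Between 8000 and 16000 UMIs, the both-gene cells gave 8.33%, 20.9% and 4.76% and the others 15.1%, 6.10% and 5.44%, so the gap remained in tumour 2 and turned in tumour 1 (3 of 36 cells). Epithelial cells with both genes gave 14.5%, 17.2% and 7.40% against 8.68%, 9.03% and 4.63%, and within that depth range 7.25%, 16.5% and 5.37% against 7.87%, 13.4% and 6.39%. Within the fibroblast class of tumour 2, 31.9% of cells with 1 or 2 Dcn UMIs and 7.40% of cells with at least 20 were cycling. The same shares were 12.3% and 8.08% in tumour 1 and 3.70% and 2.21% in tumour 3.

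**Figure D5:**
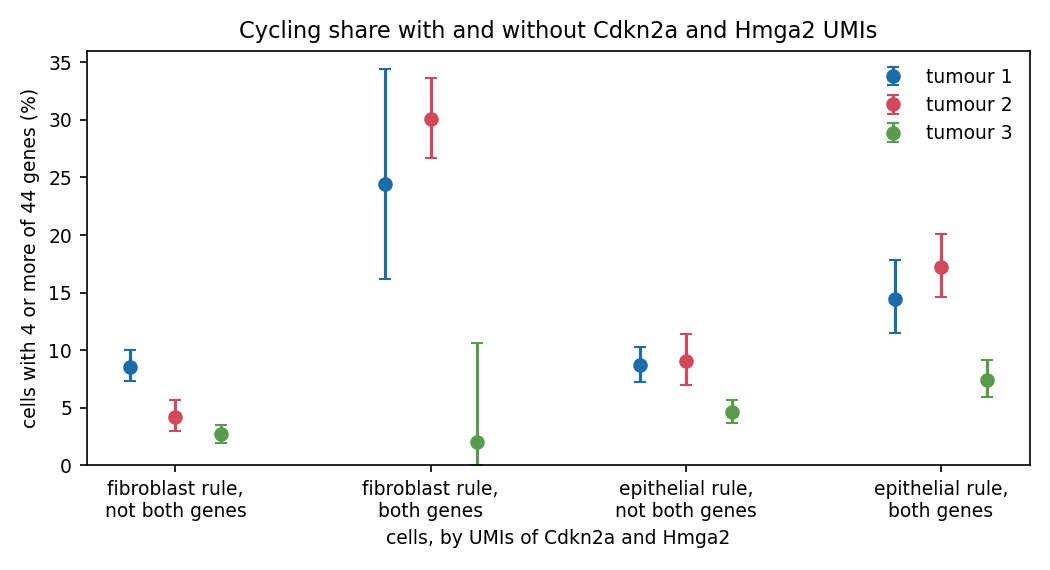
Percentage of cells called cycling (y axis) among fibroblast-rule and epithelial-rule cells without and with UMIs of both Cdkn2a and Hmga2 (x axis), by tumour (colours), with exact 95% binomial intervals. In tumour 2, fibroblast-rule cells with both genes are at 30.1% and the others at 4.203%.

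Leaving those cells out changed the comparison with epithelial cells. Of 13568 genes 51.7% passed, 24.6% higher and 27.2% lower. Of 21 S members tested 8 were higher and 2 lower in epithelial cells, and of 22 G2/M members 14 were higher and 0 lower. The medians were 0.65 and 0.79 against 0.01 for all genes. Mki67 was higher in epithelial cells (1.10, SE 0.24, edgeR adjusted p = 0.00998), as were Top2a (0.82, SE 0.24, edgeR adjusted p = 0.0311) and Mcm2 (1.30, SE 0.26, edgeR adjusted p = 0.00728), while Rrm1 (-1.03, SE 0.18, edgeR adjusted p = 0.00468) and Tipin (-0.80, SE 0.16, edgeR adjusted p = 0.00759) stayed lower. This set of cells was chosen after the data were seen, on genes whose detection moves with depth, and the part of depth in these folds was not tested. The cells left out held 23 of 167, 212 of 251 and 1 of 49 cycling fibroblast cells in tumours 1, 2 and 3. Epithelial cells with both genes stayed in. This choice of cells thus took out most cycling fibroblast cells of tumour 2. Its part in the higher epithelial values of the members was not tested. Against the same fibroblasts, mesenchymal tumour-like cells had 3 of 21 S and 5 of 22 G2/M members higher and 0 lower, beside 15.2% of 12511 genes passing, 4.71% higher and 10.5% lower.

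Other cycle genes, which had no part in calling a cell cycling, moved with the members. In thinned sums of cycling against other epithelial cells, 10% of 9878 genes passed in edgeR, 6.31% higher and 3.7% lower. Of other replication genes 30 of 35 tested were higher and 0 lower, and of other mitosis genes 46 of 47 were higher and 0 lower. In fibroblast cells, where 5.77% of genes passed (2.95% higher and 2.81% lower), the counts were 29 of 35 and 37 of 40, and in mesenchymal tumour-like cells (tumours 1 and 2, 7.26% passed, 3.91% higher and 3.35% lower) 22 of 25 and 35 of 36. In that last class the 57 calls became 9 with DESeq2 and 0 without the replicate block. The lists held 42 replication and 55 mitosis genes, and the count filter can keep a gene for its level in cycling cells alone. Without that filter, over both lists, 80 of 97 were higher in epithelial, 80 of 97 in fibroblast and 73 of 97 in mesenchymal tumour-like cells, with 0 lower. Ccna2, the cyclin of S and G2, was at 78.6, 64.0 and 34.8 CPM in cycling and 1.0, 2.3 and 0.4 in other epithelial cells, without overlap (log2 fold change 5.69, SE 0.34, edgeR adjusted p = 2.02e-34).

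Genes of G1 and brakes on division had smaller median changes, a difference between lists that was not tested. In epithelial cells the median log2 fold change was 0.10, against 1.57 for other replication and 4.22 for other mitosis genes. There 2 of 22 were higher and 3 lower in cycling cells, beside 6.31% and 3.7% of all genes. In fibroblast cells 2 of 22 were higher and 1 lower, and in mesenchymal tumour-like cells 1 of 18 higher and 3 lower. Btg2, an antiproliferative gene, was at 282.1, 304.7 and 308.8 CPM in cycling and 553.7, 468.3 and 513.5 in other epithelial cells (-0.78, SE 0.11, edgeR adjusted p = 1.73e-09). Cdkn1a, which encodes the inhibitor p21, was at 41.0, 74.1 and 81.8 against 110.7, 98.4 and 124.4 CPM (-0.78, SE 0.16, edgeR adjusted p = 0.000143), and Btg1 fell by 0.44 on the log2 scale (edgeR adjusted p = 0.00415). Neither Btg2 nor Cdkn1a overlapped between the groups. In fibroblast cells Ccnd1, the D-type cyclin of G1, was at 61.9, 521.9 and 34.0 CPM in cycling and 29.9, 116.3 and 22.1 in other cells (1.54, SE 0.28, edgeR adjusted p = 0.00208). Cdkn1a was lower (-1.18, SE 0.27, edgeR adjusted p = 0.0111) and Cdk4, the partner kinase of D-type cyclins, higher (0.75, SE 0.20, edgeR adjusted p = 0.0294). In tumour 2, 212 of 251 cycling fibroblast cells held both Cdkn2a and Hmga2, against 43.2% of the whole class. Ccnd1 was also called higher in mesenchymal tumour-like than in fibroblast cells by edgeR. Cycling and this mix of cells cannot be told apart in tumour 2. In mesenchymal tumour-like cells Btg2 (-1.33), Cdkn2b (-0.93) and Btg1 (-0.81) were lower, with edgeR adjusted p = 0.000261, 0.0199 and 0.0128.

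Over the 17 sums of class and tumour, the genes whose level was most like the mean of the S members were Dscc1 (Pearson r = 0.975), Smc2 (0.957) and Srsf6 (0.939). For the G2/M mean they were Ccna2 (0.984), Racgap1 (0.973) and Casc5 (0.969). The sums share tumours and differ in depth, so these values are a description.

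In the authors' deposited table of 19 clusters, members were raised in 2 clusters. In cluster 10 all 22 G2/M and all 22 S members were higher, with median log2 fold changes of 3.20 and 2.22 in the authors' deposited table. In cluster 14, per the authors' deposited table, the higher members were 22 G2/M and 18 S genes, with medians of 3.03 and 1.74. The authors' deposited table gave cluster 10 lower Epcam (-4.63) and Dcn (-3.21) and higher Cdkn2a (1.11) and Hmga2 (2.13). For cluster 14 the authors' deposited table gave Epcam -0.03 and Cdh1 0.41, neither past the threshold, and lower Dcn (-4.58). In the other 17 clusters of the authors' deposited table no member was higher at an adjusted p under 0.05. In some of them the lack of a call says little. Clusters 11, 13 and 15 of the authors' deposited table had 0 members called lower either, at G2/M medians of -3.24, -3.03 and -3.03. The share of all genes called per cluster is not given here, so the counts for clusters 10 and 14 stand without it. Cluster 12 of the authors' deposited table, with high Rgs5 (5.60) and Higd1b (6.13), had a G2/M median of 0.91 and 0 members called in either direction.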

How the data were processed

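Cells of 3 tumours were sequenced with 10x 3' v2 chemistry. The authors deposited 1 matrix of UMI counts per gene, not normalized, per the file headers. The suffix of each barcode gave its tumour, per the labels. Cell Ranger 2.1.1 and Seurat 3.0 were used, per the submitters' processing notes. Genome build, annotation and strand setting: not given in the sources used here. A second deposited table holds log2 fold changes and adjusted p-values for genes in each cluster, per the file headers, and was copied without a test.

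The members and lists were chosen with earlier results of these data known. Barcodes under 500 genes (27) or over 20% mitochondrial counts (255) were left out, and Scrublet (scanpy 1.11.5) marked 312 doublets, also left out. Cells of several class rules (1441) or none (3064) were left out. As a departure from the plan, cells of the mesothelial and fibroblast rules were counted as mesothelial, since 364 of 375 met both. Each cell was thinned to 3000 UMIs; 91 epithelial, 333 fibroblast, 105 mural, 1 mesothelial, 29 endothelial and 3 mesenchymal tumour-like cells of tumour 3 were shallower. Shares carry exact (Clopper-Pearson) 95% intervals, for counting error only, and a limit of 3 counts where 0 were seen. Share differences were tested with exact two-sided sign-flip permutation tests, adjusted over 5 comparisons.

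Full-depth counts were summed per tumour and class (206127 to 25420386 UMIs) where at least 20 cells existed and tested with edgeR 4.0.16 (quasi-likelihood, TMM, filterByExpr, Benjamini-Hochberg over all genes tested, 0.05). The tumour was a replicate block, because both sums come from the same tumour. Genes of the class rules were left out. Cycling and other cells were compared in thinned sums without the members. SEs were derived from edgeR's F statistic and the fitted change. The code was tested on simulated data. Fen1, Gins2, Rfc2, Cdc45, Ube2c, Cdc20, Nusap1 and Tacc3 overlap a gene on the opposite strand in GENCODE M21, so their counts are uncertain.

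Named members were those past the threshold with the same sign in every tumour and the largest changes, up to 4 per list and 3 for other lists, with any called against the direction of its list, plus Mki67, Top2a, Pcna, Mcm2, Cdk1 and Hmgb2. Of the other lists, the genes shown were picked from those so named, and Mki67, Top2a and Mcm2 in the comparison without both-gene cells after their values were seen. Alternatives were DESeq2 1.42.0, no filter, library totals, no block, 1 fit for all classes, other thinning and thresholds, doublets kept, overlapping cells kept, and each tumour left out. For the shares they also included another random seed and class rules on thinned counts. Fibroblasts without cells that hold Cdkn2a and Hmga2, and the 8000 to 16000 UMI range, were added after seeing the data.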

Additional observations from a re-analysis of the deposited data

Results flagged for a closer look

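Cells outside the compared classes also held cycling cells. Of kept cells that met no class rule, 6.09%, 16.4% and 2.952% were cycling in tumours 1, 2 and 3. Of cells left out because they met several rules, 16.8%, 31.32% and 9.668% were cycling, with median UMIs of 14541, 14033 and 9806 against 5909.5, 6852.5 and 5249 in cells that met none. The tumours kept the order seen in the epithelial class. No control samples exist for these shares.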

How the results depend on the processing

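Of 151 values of the main comparisons under alternatives, 13 changed direction and 30, all counts of calls, moved by over 1.5 times; the cause was not tested. The other 108 kept the direction of a difference, whatever its size, or a count within 1.5 times. No share difference could pass a threshold in this design. Epithelial minus fibroblast cycling share was -0.664 points with at least 6 members, -0.0298 at 2000 UMIs, -0.807 with overlapping cells kept, 14.05 without thinning and -0.607 to 1.90 with a tumour left out. That difference was 2.06 points with class rules on thinned counts. It was 4.59 points with fibroblast cells that hold Cdkn2a and Hmga2 left out. Epithelial minus mural was -18.8 at 5000 UMIs and 17.9 without thinning. Epithelial minus mesothelial was 2.46 at 5000 UMIs, 4.34 without thinning and -3.72 to 0.347 with a tumour left out. Epithelial minus endothelial was -17.2 at 5000 UMIs, 21.4 without thinning, 0.536 with overlapping cells kept and -6.99 to 5.66 with a tumour left out. The G2/M-leaning difference ranged from -0.855 to 10.9 against fibroblast and -13.8 to 2.96 against mesenchymal tumour-like cells with a tumour left out.

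Without the replicate block, members called numbered 1 against fibroblast (5 with it), 1 against mural (17), 2 against mesothelial (8) and 0 against endothelial cells (4), and other cycle genes called numbered 45 (76), 33 (66) and 0 (57) in epithelial, fibroblast and mesenchymal tumour-like cells. Sums of thinned cells gave 9 against fibroblast, 1 against endothelial cells and 1 for mesenchymal tumour-like against fibroblast cells. One fit for all classes gave 11 against mural, 4 against mesothelial, 5 against mesenchymal tumour-like and 9 for mesenchymal tumour-like against fibroblast cells. DESeq2 gave 5 against mesothelial, 0 against endothelial, 7 against mesenchymal tumour-like, 2 for mesenchymal tumour-like against fibroblast, and 9 cycle genes in mesenchymal tumour-like cells. No filter gave 1 in each comparison with mesenchymal tumour-like cells. Fibroblasts without cells that hold Cdkn2a and Hmga2 gave 24 and 8. With a tumour left out, calls ranged from 3 to 9 against fibroblast, 8 to 22 against mural, 5 to 7 against mesothelial, 0 to 5 against mesenchymal tumour-like and 0 to 9 for mesenchymal tumour-like against fibroblast cells. Of 789 values for single genes, 621 kept their call, 168 lost it and 0 changed sign; Kif23 against mural cells lost its call in each fit with a tumour left out. Leaving out a tumour was not run for the endothelial sums or for cycling mesenchymal tumour-like cells, where 1 tumour would remain.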
